A study of Homo sapiens with 5 samples.

Results

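The regions described here are 604 stretches of the genome with a HIF1α peak called in untreated cells and an Nrf2 peak called after iAs. They were selected on the presence of called peaks in the 4 ChIP-seq libraries. Each merged region had to overlap, by at least 1 bp, a HIF1α peak of the control cells and an Nrf2 peak of the iAs-treated cells. It had to overlap neither an Nrf2 peak of the control cells nor a HIF1α peak of the iAs-treated cells. This left 604 of the 21088 merged regions (2.86%). They are called the exchanged regions in the text, as a name for that pattern of called peaks only. A missing peak means that none was called, not that the factor was absent.

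Nrf2 is a basic leucine zipper factor that is degraded through Keap1 in resting cells and accumulates under electrophilic or oxidative stress, including arsenite. It pairs with small MAF proteins and binds the antioxidant response element (ARE), whose core resembles an AP-1 site with a GC pair added on one side. HIF1α is a basic helix-loop-helix factor that pairs with ARNT and binds the hypoxia response element around the RCGTG core, where R is A or G. It is hydroxylated and degraded in oxygenated cells. AP-1 factors of the Jun and Fos families bind mainly TGAGTCA and its reverse complement TGACTCA. The looser TGANTCA, called AP-1 type here, also takes in TGAATCA and TGATTCA. TEAD factors, the DNA-binding partners of YAP, bind around GGAATG. AP-1 and TEAD elements are common in distal enhancers of adherent epithelial cells.

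The cells were BEAS-2B, an immortalized line of human bronchial epithelial cells, serum-starved overnight. One library per condition was made with an Nrf2 antibody (sc-13032) and with a HIF1α antibody (ab2185), from cells without iAs and from cells given 1 μM iAs for 6 h. The labels name these antibodies from Santa Cruz and Abcam, whereas the methods name ChIP-grade antibodies of Active Motif. The lists give positions on hg19 and no expression values, heights or scores, so the cell line was not checked against marker genes and the depth behind each peak is unknown. With 1 library per group, a change from control to iAs has no replicate check, and intervals given below cover the counting of regions only. The lists held 3204 and 7743 Nrf2 peaks and 6008 and 12826 HIF1α peaks, without and with iAs.

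Of the 13 exchanged regions that held the extended ARE sequence TGACTCAGC near their centre, 6 are shown first, because this element was rare among them. The capitals mark TGACTCAGC or its reverse complement, and each line is the plus strand of hg19, with 30 bp on each side.
CYP26B1, chr2:72342694-72342762, plus strand: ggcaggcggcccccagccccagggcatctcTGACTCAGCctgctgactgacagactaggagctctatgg
GALNT2, chr1:230240563-230240631, plus strand: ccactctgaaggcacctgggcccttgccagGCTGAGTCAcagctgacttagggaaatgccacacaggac
STX1A, chr7:73130133-73130201, plus strand: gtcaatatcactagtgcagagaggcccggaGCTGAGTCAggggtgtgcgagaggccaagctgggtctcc
CDC42EP4, chr17:71287721-71287789, plus strand: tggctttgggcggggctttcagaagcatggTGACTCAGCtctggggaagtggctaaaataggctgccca
ESR1, chr6:152375763-152375831, plus strand: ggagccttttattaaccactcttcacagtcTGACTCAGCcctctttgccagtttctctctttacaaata
USP12, chr13:27757246-27757314, plus strand: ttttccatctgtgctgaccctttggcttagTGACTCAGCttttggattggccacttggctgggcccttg

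The far more frequent element was the AP-1 type TGANTCA, shown in capitals for exchanged regions in or near 7 genes of the lists described further on. None of these 7 regions held TGACTCAGC in its window.
GFPT2, chr5:179757971-179758037, plus strand: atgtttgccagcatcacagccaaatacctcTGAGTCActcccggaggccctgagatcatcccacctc
TGFB2, chr1:218550755-218550821, plus strand: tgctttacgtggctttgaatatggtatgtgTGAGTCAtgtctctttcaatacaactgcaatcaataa
EGFR, chr7:55154497-55154563, plus strand: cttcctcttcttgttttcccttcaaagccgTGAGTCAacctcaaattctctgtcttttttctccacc
PKM, chr15:72520930-72520996, plus strand: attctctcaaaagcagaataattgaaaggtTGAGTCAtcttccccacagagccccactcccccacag
PXN, chr12:120669210-120669276, plus strand: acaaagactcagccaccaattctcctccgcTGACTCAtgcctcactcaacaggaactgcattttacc
ITGB8, chr7:20392706-20392772, plus strand: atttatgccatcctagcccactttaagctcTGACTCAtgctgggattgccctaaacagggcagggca
TGFBI, chr5:135389493-135389559, plus strand: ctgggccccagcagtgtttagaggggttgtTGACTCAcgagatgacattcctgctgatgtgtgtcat

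Another 5 lines show exchanged regions with the HIF-type core RCGTG and no TGANTCA in their window. The capitals mark the core on either strand, so that CACGT and CACGC are the reverse complements of ACGTG and GCGTG.
CCN1, chr1:86073061-86073125, plus strand: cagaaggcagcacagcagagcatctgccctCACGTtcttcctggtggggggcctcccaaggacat
ABCC1, chr16:16168442-16168506, plus strand: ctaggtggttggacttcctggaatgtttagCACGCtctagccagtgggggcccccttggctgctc
LATS2, chr13:21644000-21644064, plus strand: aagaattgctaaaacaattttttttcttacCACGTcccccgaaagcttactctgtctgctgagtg
SMAD3, chr15:67402053-67402117, plus strand: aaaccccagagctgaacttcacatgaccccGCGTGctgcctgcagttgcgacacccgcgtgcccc
JDP2, chr14:75920083-75920147, plus strand: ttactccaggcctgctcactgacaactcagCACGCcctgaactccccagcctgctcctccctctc

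Whole windows of 201 bp around the centre of 4 exchanged regions show how the elements lay together or were missing. Capitals mark elements of the AP-1, HIF and TEAD type (GGAATG) on either strand. The TGFB2 window holds an ACGTG core followed by an AP-1 type element, the GALNT2 window holds a pair of AP-1 type elements and a GGAATG, the MYH9 window holds GGAATG alone, and the SLC2A1 window holds none of them.
TGFB2, chr1:218550646-218550846, plus strand: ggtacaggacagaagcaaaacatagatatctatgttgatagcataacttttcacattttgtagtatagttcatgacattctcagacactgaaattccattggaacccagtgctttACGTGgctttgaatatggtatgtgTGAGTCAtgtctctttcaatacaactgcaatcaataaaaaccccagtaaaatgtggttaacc
GALNT2, chr1:230240545-230240745, plus strand: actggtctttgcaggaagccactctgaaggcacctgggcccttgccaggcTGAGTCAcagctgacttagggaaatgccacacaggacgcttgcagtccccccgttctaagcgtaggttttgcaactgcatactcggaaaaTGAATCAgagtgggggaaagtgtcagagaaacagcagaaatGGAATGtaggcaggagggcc
MYH9, chr22:36764675-36764875, plus strand: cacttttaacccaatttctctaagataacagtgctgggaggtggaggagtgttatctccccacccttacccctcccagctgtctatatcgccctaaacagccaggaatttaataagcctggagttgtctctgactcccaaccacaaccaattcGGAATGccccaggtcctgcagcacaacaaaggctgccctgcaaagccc
SLC2A1, chr1:43415064-43415264, plus strand: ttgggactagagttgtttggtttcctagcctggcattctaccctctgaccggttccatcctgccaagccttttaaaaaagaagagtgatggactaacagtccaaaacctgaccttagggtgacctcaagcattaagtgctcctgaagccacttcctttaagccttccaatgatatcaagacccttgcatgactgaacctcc

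The exchanged pattern can be read from either factor. Among the 2210 regions with a HIF1α peak in control cells, no Nrf2 peak in control cells and no HIF1α peak with iAs, 604 had an Nrf2 peak with iAs (27.3%). Among the 2794 regions where HIF1α had a peak in both conditions and Nrf2 none in control cells, 376 had one (13.5%). Of the 4769 regions with an Nrf2 peak with iAs and none in control cells, the exchanged regions made up 12.7%. These shares come from the peaks that the rule used and are given as a description. For comparison, 3 other classes of merged regions were followed below. The 1606 HIF1α-only regions had only the HIF1α control peak, and the 3516 Nrf2-only regions held an Nrf2 peak with iAs and no other, and both are called single-factor classes. A further 522 regions, called Nrf2-constant, also had a HIF1α peak in control cells only, but an Nrf2 peak in both conditions.

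In each exchanged region the HIF1α and the Nrf2 peak overlapped each other, and most lay almost on top of each other. The median distance between their centres was 44.5 bp (range 0 to 367 bp). The bases shared had a median of 214 bp (19 to 549 bp), which was a median of 98.5% of the shorter peak. In 282 regions one peak lay wholly within the other. The median width was 265 bp for the HIF1α peak (190 to 829 bp) and 285 bp for the Nrf2 peak (181 to 1070 bp), and the merged region was 351.5 bp wide (211 to 1070 bp). The Nrf2 peak was the wider one in 308 regions and the HIF1α peak in 292, while 4 had equal widths. One region held 2 HIF1α peaks and another held 2 Nrf2 peaks.

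**Figure D1:**
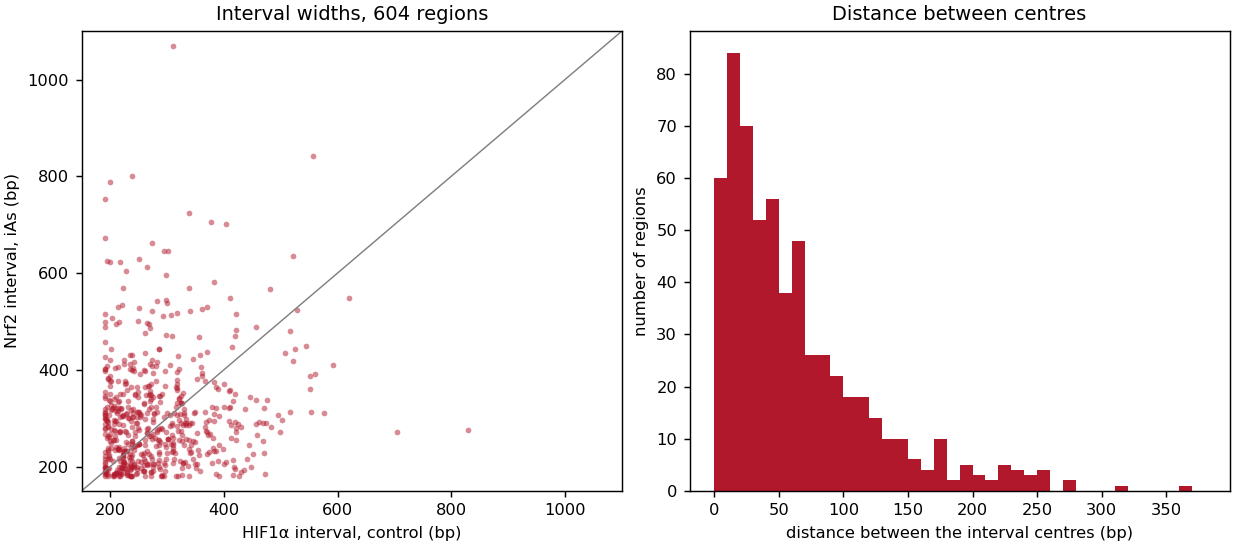
Left, width of the Nrf2 peak with iAs (bp, y axis) against that of the HIF1α peak in control cells (bp, x axis), 1 point per exchanged region, with the line of equal width. Right, number of regions by distance between the peak centres in bins of 10 bp, with a median of 44.5 bp.

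The plot of widths shows a cloud at the lower left, with points on either side of the line. Only 30% of the exchanged regions had an Nrf2 peak wider than the median of the Nrf2 iAs list (333 bp), as did 29.0% of the Nrf2-only regions, against 81.4% of the Nrf2-constant regions. For HIF1α, 43.9% of the exchanged regions exceeded the median of the HIF1α control list (276 bp), against 30.5% of HIF1α-only and 48.7% of Nrf2-constant regions. The shortest width a list held, 190 bp for HIF1α control and 181 bp for Nrf2 iAs, was found in 5.30% and 3.31% of the exchanged regions, close to the 5.69% and 3.84% of the whole lists. Widths come from the lists that the rule used and are a description.

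The widest Nrf2 peak of the exchanged regions spanned 1070 bp in intron 2 of ZMYND8, which encodes a reader of histone marks (chr20:45945639-45946708). The HIF1α peak within it covered 310 bp. The next lay 3.77 kb upstream of the start of FLG, which encodes the epidermal barrier protein filaggrin, with an Nrf2 peak of 842 bp and a HIF1α peak of 557 bp. The FLG region was the only one among both the 10 widest Nrf2 and the 10 widest HIF1α peaks. The widest HIF1α peak (829 bp) lay 179 kb downstream of the start of ETS2, with an Nrf2 peak of 275 bp at one side. Others of the widest HIF1α peaks lay 1.05 kb upstream of PLD1, a phospholipase (704 bp), and 26.6 kb downstream of the start of CCN1, a matrix protein and YAP target (621 bp).

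The AP-1 type element TGANTCA was found no more than 100 bp from the centre in 238 exchanged regions, which is 39.4% (95% confidence interval 35.6 to 43.4%). HIF1α-only regions held it in 21.0%, and the difference was 18.4 percentage points (14.1 to 22.8). Nrf2-only regions held it in 49.8%, a difference of -10.4 points (-14.5 to -6.09). Nrf2-constant regions had 44.8%, and the interval of that difference included 0 (-11.2 to 0.353). Windows moved by 5 kb held it in 8.77%, and all merged regions in 19.1%. The exchanged regions thus lay between the HIF1α-only and the Nrf2-only class. Of the forms of the element, TGAGTCA occurred in 32.5% and TGAATCA in 10.1% of the exchanged regions, and 53 regions held 2 or more elements (8.77%).

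The extended ARE sequence TGACTCAGC, which contains a TGANTCA, showed another order. It was found in 13 exchanged regions, 2.15% (1.26 to 3.65%). Nrf2-only regions held it in 17.3%, a difference of -15.1 points (-16.7 to -13.2), and Nrf2-constant regions in 11.1%, a difference of -8.96 points (-12.1 to -6.12). In HIF1α-only regions it stood at 0.311%, 1.84 points lower than in the exchanged regions (0.859 to 3.35). All merged regions held it in 5.83% and windows moved by 5 kb in 0.497%. The looser ARE core TGACNNNGC, which overlaps both, gave 11.9% in exchanged, 33.8% in Nrf2-only, 25.5% in Nrf2-constant and 9.15% in HIF1α-only regions. The differences from the classes with Nrf2 left out 0, at -21.8 points (-24.7 to -18.6) and -13.6 points (-18.1 to -9.02), while that from HIF1α-only regions did not (-0.0227 to 5.89).

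The same contrast stood out among windows that held TGAGTCA in any form. Of the 196 exchanged windows with it, 13 had the GC pair on the ARE side (6.63%) and 17 had a GC pair on the opposite side (8.67%). Of the 1487 Nrf2-only windows with TGAGTCA, 607 had the GC pair on the ARE side (40.8%) and 233 on the opposite side (15.7%). Nrf2-constant windows gave 29.0% and 16.0%, and HIF1α-only windows 1.87% and 5.97%. The difference between exchanged and Nrf2-only regions on the ARE side was -34.2 points (-37.9 to -29.2), and that between exchanged and HIF1α-only regions 4.77 points (1.12 to 9.28).

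The HIF-type core RCGTG was found in 155 exchanged regions, 25.7% (22.3 to 29.3%). HIF1α-only regions held it more often, at 39.2%, with a difference of -13.6 points (-17.7 to -9.24). Nrf2-only regions had 21.8% (3.82 points lower, 0.216 to 7.69) and Nrf2-constant regions 28.5% (-8.1 to 2.31). Windows moved by 5 kb held it in 20% (5.63 points lower, 0.892 to 10.3) and all merged regions in 41.7%. Both forms of the core were less frequent than in HIF1α-only regions, with differences of -5.92 points for ACGTG (-9.21 to -2.33) and -10.6 points for GCGTG (-13.9 to -6.95). With RCGTG searched over the whole merged region, the difference from HIF1α-only regions was -4.07 points and its interval included 0 (-8.64 to 0.59). That search covered unlike lengths, with a median of 351.5 bp in exchanged and 237 bp in HIF1α-only regions. The part of length in the change was not tested. TGANTCA and RCGTG stood together in 58 exchanged windows (9.60%), and 269 windows held neither (44.5%). By location, RCGTG was found in 37.9% of the 29 promoter (22.7 to 56%), 28.2% of the intron and 22.4% of the distal intergenic exchanged regions. Promoters made up 25.3% of HIF1α-only and 4.80% of exchanged regions. The part of location in the RCGTG difference from HIF1α-only regions was not tested.

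GGAATG, the TEAD type, was found in 201 exchanged regions, 33.3% (29.6 to 37.1%). This was above all 3 classes, with differences of 8.56 points from HIF1α-only (24.7%, 4.32 to 12.9), 13.0 from Nrf2-only (20.3%, 9.11 to 17.1) and 6.27 from Nrf2-constant regions (27.0%, 0.882 to 11.6). Windows moved by 5 kb held it in 10.8%, and all merged regions in 12.6%. It occurred in 27.3% of the exchanged windows with TGANTCA and in 37.2% of those without it. The RUNX-type sequence TGTGGT was found in 22.8% of exchanged, 17.7% of HIF1α-only, 16.2% of Nrf2-only and 26.4% of Nrf2-constant regions. The GC box GGGCGG, a sequence of promoters, stood at 6.29% in exchanged regions and 17.0% in HIF1α-only regions, a difference of -10.7 points (-13.3 to -7.87).

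The median GC content of the windows was 48.8% in exchanged, 53.2% in HIF1α-only, 45.8% in Nrf2-only and 46.8% in Nrf2-constant regions. It was 44.5% in the windows moved by 5 kb and 64.7% in all merged regions. The part of GC content in the shares of the elements was not tested. In all, 12 sequences, 6 location classes and 3 gene-start shares were compared with 3 classes. Of these 63 differences, 28 had a 95% interval that left out 0, and 15 did so at the level adjusted for 63 comparisons (Bonferroni). The 15 included TGANTCA and TGACTCAGC against both single-factor classes, RCGTG against HIF1α-only regions, and GGAATG against both single-factor classes. The difference of GGAATG from Nrf2-constant regions (-2.97 to 15.2) and that of RCGTG from Nrf2-only regions (-2.17 to 10.6) did not.

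**Figure D2:**
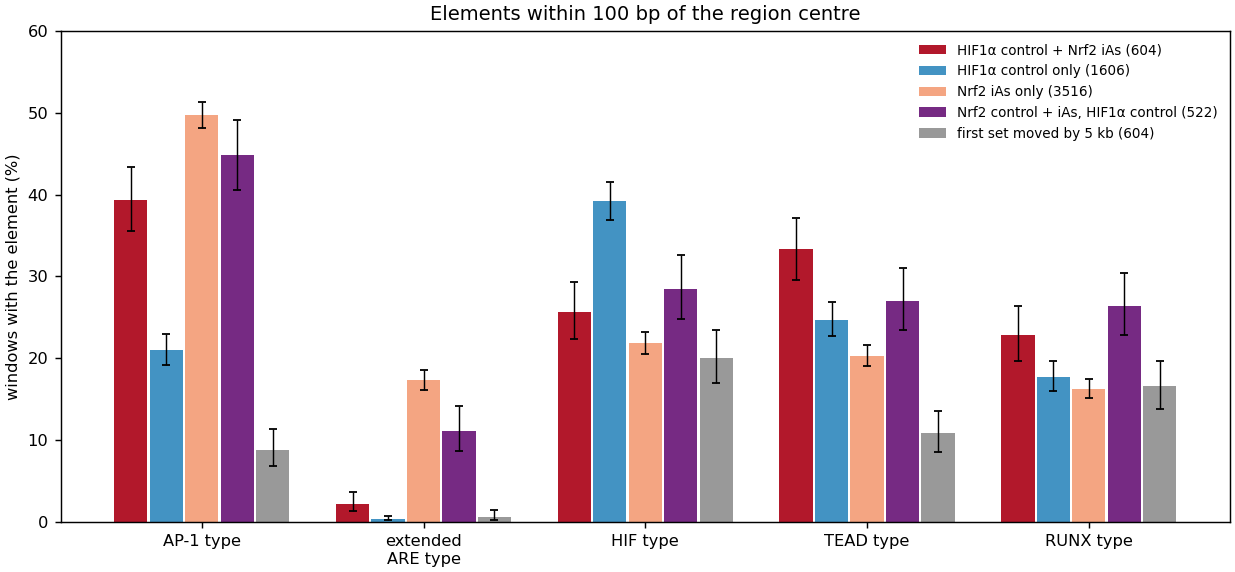
Share of windows (%, y axis) with each element within 100 bp of the region centre, with Wilson 95% intervals as error bars, for the exchanged regions, 3 comparison classes and the exchanged windows moved by 5 kb (number of windows in brackets). The exchanged regions reached 39.4% for the AP-1 type and 2.15% for the extended ARE type.

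In the plot of element shares the first bar of each group stands for the exchanged regions. It is lower than the bar of the Nrf2-constant class for the ARE type and higher for the TEAD type, and the intervals of the differences for the AP-1, HIF and RUNX types included 0. For the AP-1 type this held only around the region centre and the Nrf2 centre, since the difference was -13.9 points around the HIF1α centre (-19.6 to -8.14) and -18.5 over the whole merged region (-24 to -12.9). For the HIF type it was -13.3 points over the whole region (-19 to -7.44). Whole Nrf2-constant regions were longer, with a median of 566.5 bp against 351.5 bp in exchanged regions. The part of length in the whole-region differences was not tested. The shares of TGANTCA in the exchanged regions varied little with the width of the peaks. With the regions in 3 equal groups, from the narrowest to the widest HIF1α peaks they were 42.6%, 39.3% and 36.3%, and for Nrf2 peaks 39.1%, 38.8% and 40.3%, all within each other's 95% intervals. By distance between the peak centres they were 41.1%, 40.3% and 36.8%. Exchanged regions in introns held it in 44.4% (38.3 to 50.7%), distal intergenic ones in 37.9% (32.8 to 43.3%) and the 29 promoter ones in 13.8% (5.50 to 30.6%).

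Elements of the AP-1 type lay close to the centre of both peaks. Where the window held one, the nearest match was at a median of 38 bp from the Nrf2 centre and 45 bp from the HIF1α centre. It was nearer to the Nrf2 centre in 130 regions and nearer to the HIF1α centre in 108. A TGANTCA within 50 bp was found in 25.2% of the exchanged regions for the Nrf2 centre and 24.5% for the HIF1α centre. For RCGTG the same shares were 14.1% and 15.6%, and for GGAATG 17.7% and 20.2%.

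**Figure D3:**
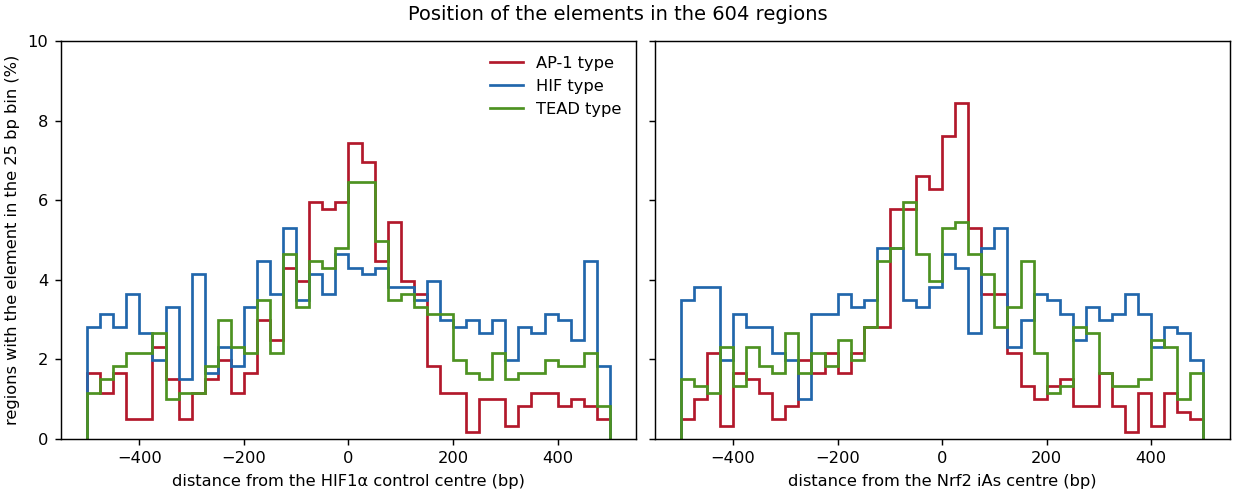
Share of the 604 exchanged regions (%, y axis) with an element in each bin of 25 bp, by distance (bp, x axis) from the centre of the HIF1α control peak (left) and of the Nrf2 iAs peak (right). The AP-1 type peaks near both centres, with 8.44% in the highest bin. The HIF type is spread over the 500 bp shown on each side, with its highest bin (5.30%) 100 to 125 bp from either centre.

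The plot of positions shows the AP-1 type rising towards both centres and the TEAD type doing so less steeply. The HIF type stayed between 0.993% and 5.30% per bin around the Nrf2 centre, and every bin above 3.81% lay within 125 bp of it.

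Exchanged regions lay mostly away from gene starts. Their centres were distal intergenic in 322 cases (53.3%, 49.3 to 57.3%), intronic in 241 (39.9%, 36.1 to 43.9%) and within the 3 kb upstream of a transcription start (promoter) in 29 (4.80%, 3.36 to 6.81%). The 5'-UTRs, other exonic sequence and the 3'-UTRs held 4 each. Compared with HIF1α-only regions, distal intergenic sequence was more frequent by 16.1 points (11.4 to 20.7) and introns by 7.83 points (3.35 to 12.4), while promoters were less frequent, with 25.3% in HIF1α-only regions and a difference of -20.5 points (-23.2 to -17.7). Compared with Nrf2-only regions, distal intergenic sequence was more frequent by 6.55 points (2.24 to 10.8), but the interval included 0 with the wider 50% of each list (4.97 points, -2.02 to 11.9) and at the Bonferroni level (-0.82 to 13.8). The promoter difference from Nrf2-only regions was -2.17 points (-3.86 to -0.00598) and included 0 once regions with an excluded peak within 1 kb were left out. No location share differed from the Nrf2-constant regions beyond its interval. The median distance to the nearest protein-coding start was 36.4 kb, with 25 regions within 1 kb and 250 beyond 50 kb. Of the regions, 87 lay in a first intron of the canonical transcript.

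**Figure D4:**
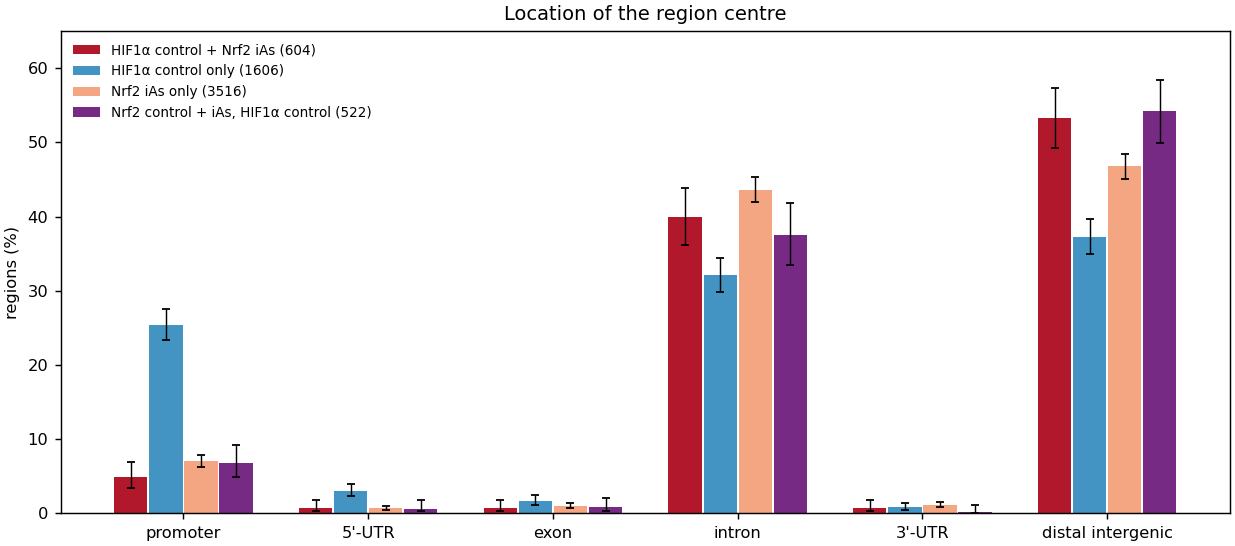
Share of regions (%, y axis) by location of the centre in 6 annotation classes, with Wilson 95% intervals as error bars, for exchanged regions and 3 comparison classes. Promoters held 4.80% of exchanged and 25.3% of HIF1α-only regions.

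With iAs, HIF1α peaks were called at the start of many genes next to exchanged regions, as they were next to the other classes. The nearest HIF1α iAs peak lay at a median of 52.5 kb, and the nearest Nrf2 control peak at 69.0 kb. For 380 of the 579 exchanged regions that lay over 1 kb from a start, the nearest protein-coding gene carried a HIF1α iAs peak at most 1 kb from a start (65.6%, 61.7 to 69.4%). The same share was 64.1% for HIF1α-only, 61.4% for Nrf2-only and 64.1% for Nrf2-constant regions, with intervals of the differences that included 0 (-3.26 to 6.24, -0.0364 to 8.36 and -4.17 to 7.29 points). Over all 20175 protein-coding genes, 44.2% had such a HIF1α peak. This share and those of all genes below count each gene once, whereas the shares of regions can count a gene more than once. A HIF1α control peak lay there at 23.8% of the nearest genes of exchanged regions, against 23.6%, 20.3% and 25.7% in the 3 classes and 17.7% of all genes. An Nrf2 iAs peak lay there at 14.5%, against 11%, 12.9% and 17.1% in the classes and 5.98% of all genes.

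In or within 10 kb of protein-coding genes, exchanged regions were found at 365 of 20175 genes (1.81%). Of 10 lists of genes in pathways tied to Nrf2, HIF1α, AP-1, YAP and epithelial biology, each held between 1 and 4 such genes, 18 genes in all. Of the 20 regions at them, 10 held TGANTCA in the window (50%), 8 held RCGTG (40%) and 7 held GGAATG (35%). The shares over all exchanged regions were 39.4%, 25.7% and 33.3%. TGACTCAGC was in none of these windows, and in 2.15% of all exchanged windows. With only 20 regions, these counts are a description. At 15 of the 18 genes (83.3%) a HIF1α iAs peak lay at most 1 kb from a start, the exceptions being CCL2, LIF and PXN. The share was 44.2% over all protein-coding genes and 65.6% by nearest gene over the 579 exchanged regions.

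Established targets of either factor gave 1 gene each. Of 20 Nrf2 target genes, ABCC1, an exporter of glutathione conjugates, had an exchanged region. It lay in intron 14 (chr16:16168190-16168659), where the HIF1α peak of 420 bp fell wholly within the Nrf2 peak of 470 bp, and it held a GCGTG core and a GGAATG but no TGANTCA. Of 20 HIF1 target genes, SLC2A1 had one, in intron 1 (chr1:43414954-43415374). SLC2A1 encodes the glucose transporter GLUT1. Its HIF1α peak of 199 bp lay within an Nrf2 peak of 421 bp, and the region held no element of the AP-1, HIF or TEAD type. Over the SLC2A1 locus, which like other loci here means the gene and 10 kb on either side, the lists held 2 and 4 Nrf2 peaks and 2 and 3 HIF1α peaks, without and with iAs.

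Glycolysis and the hexosamine pathway, to which the study was directed, were represented by 3 of 25 listed genes, SLC2A1, PKM and GFPT2. GFPT2 encodes an isoform of the enzyme that commits fructose 6-phosphate to hexosamine synthesis. Its exchanged region lay in intron 5, 22.4 kb from the start (chr5:179757779-179758187), with a HIF1α peak of 409 bp and an Nrf2 peak of 357 bp. The TGAGTCA printed above stood at the centre of the Nrf2 peak and 21 bp from that of HIF1α. At the GFPT2 locus Nrf2 had no peak in control cells and this 1 peak with iAs, whereas HIF1α had this 1 peak in control cells and 4 peaks at other positions with iAs. PKM encodes the pyruvate kinase of the last step of glycolysis. Its region lay in intron 1, 2.59 kb from the start, with a HIF1α peak of 190 bp within an Nrf2 peak of 402 bp.

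In the list of epithelial-mesenchymal transition genes, 4 of 21 had an exchanged region, of which TGFB2, TGFBI and SMAD3 are described. TGFB2, a transforming growth factor, had a region in intron 1, 32.1 kb from the start (chr1:218550466-218551025), where the HIF1α peak of 560 bp enclosed an Nrf2 peak of 391 bp. Nrf2 had no peak at the TGFB2 locus in control cells and 2 with iAs, and HIF1α had 3 and 2. The region of TGFBI, a matrix protein induced by that pathway, lay in intron 8 and that of SMAD3, a mediator of the same signal, in intron 1.

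Genes of cell adhesion and of the YAP pathway gave 6 more members of the lists. Among 23 integrin and focal adhesion genes, ITGB1, ITGB8 and PXN had an exchanged region. That of ITGB1 lay 47.4 kb upstream of the canonical start, across the upstream end of the gene as annotated. Those of ITGB8 and of PXN, which encodes the adaptor paxillin, lay in intron 1. The ITGB8 region joined a HIF1α peak of 320 bp and an Nrf2 peak of 274 bp with 127 bp in common. Of 18 genes of the YAP and TEAD pathway, AMOTL2, which encodes a scaffold that binds YAP, and LATS2, a kinase that phosphorylates YAP, had one. The AMOTL2 region in intron 9 had the fourth widest HIF1α peak of all exchanged regions (592 bp, with an Nrf2 peak of 410 bp). Of 22 actin cytoskeleton genes, MYH9, the heavy chain of a nonmuscle myosin, had a region, in intron 1. Its HIF1α peak of 190 bp and Nrf2 peak of 277 bp shared 109 bp.

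In the remaining lists, 2 of 21 genes of NF-kB signalling and airway inflammation had an exchanged region, CCL2 and LIF. The CCL2 region lay 2.67 kb upstream of the start of this chemokine gene, with a HIF1α peak of 471 bp and an Nrf2 peak of 321 bp. CCL2 had 2 HIF1α control peaks and none with iAs, and 1 and 2 Nrf2 peaks. LIF, a cytokine gene, likewise had 1 HIF1α peak in control cells and none with iAs, and Nrf2 had none and 1, all at the one region 5.11 kb upstream. Of 20 genes of bZIP factors, JDP2, a partner of Jun, had a region, in intron 2. Of 14 genes of the EGF receptor and its ligands, EGFR had one.

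**Figure D5:**
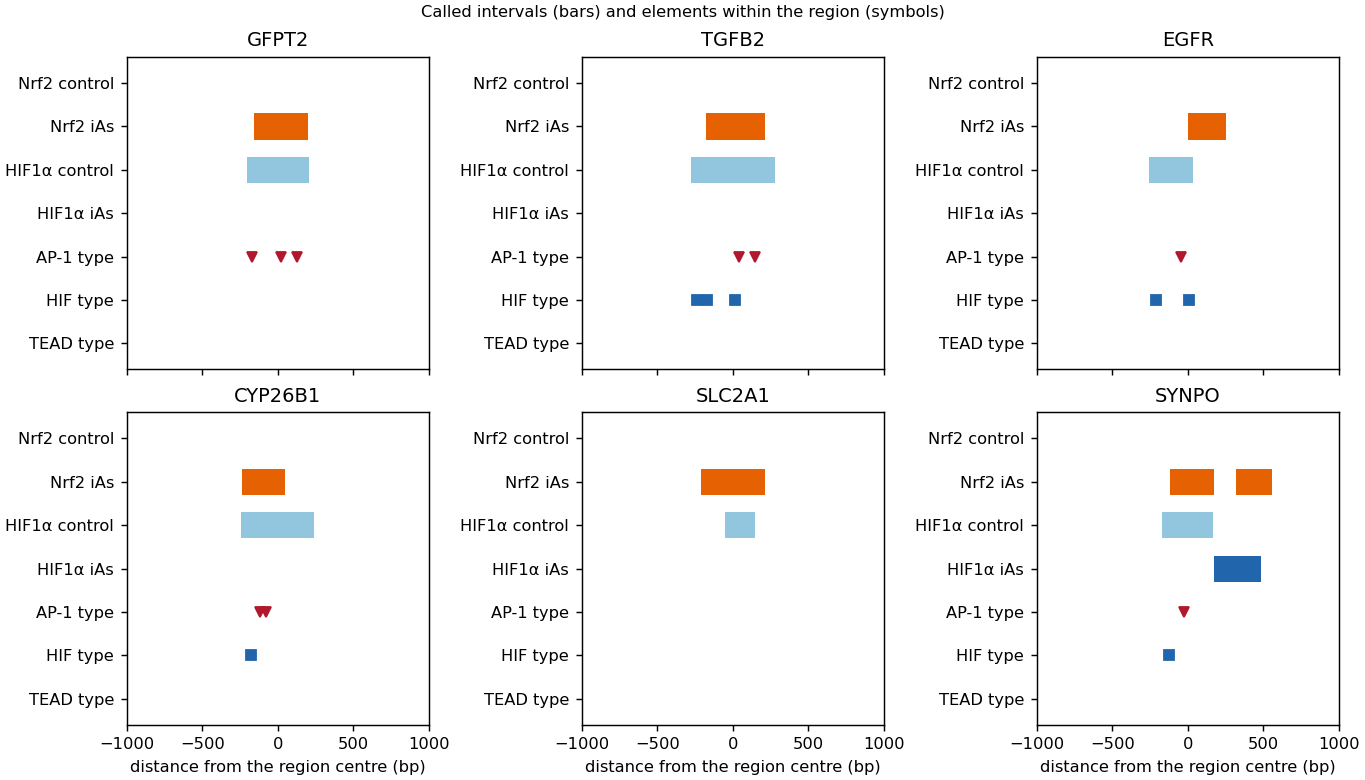
Called peaks of the 4 libraries (bars) and elements within the region (symbols) for 6 exchanged regions, by distance from the region centre (bp, x axis), cropped at 1 kb on each side. The SYNPO map shows a HIF1α iAs peak 3 bp beyond the edge of the region, and the SLC2A1 map shows no element.

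The EGFR region differs from most in the interval maps, with peaks that met at their ends. It lay in intron 1 (chr7:55154321-55154828), where a HIF1α peak of 288 bp and an Nrf2 peak of 250 bp shared 30 bp and had centres 239 bp apart. The TGAGTCA shown for EGFR fell in the HIF1α peak, 65 bp from its centre, and outside the Nrf2 peak. The lowest overlap was 19 bp, in intron 1 of NXN, which encodes the thioredoxin-like nucleoredoxin. BASP1 followed with 40 bp, TBX3 with 45 bp and CGN, which encodes the tight junction protein cingulin, with 47 bp. In all 5 the peak centres were 152 to 310 bp apart.

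Of the 10 widest exchanged regions with TGACTCAGC in the window, 9 are described. They lay at CYP26B1, ASB2, GALNT2, STX1A, CDC42EP4, ESR1, USP12, SYNPO and C1GALT1. CYP26B1 encodes an enzyme that degrades retinoic acid, GALNT2 and C1GALT1 enzymes of O-linked glycan synthesis, and CDC42EP4 and SYNPO proteins tied to actin. The CYP26B1 region was the widest of these (483 bp), with the element 18 bp from the Nrf2 centre and 75 bp from the HIF1α centre. Wider regions held TGACTCAGC outside the window, among them those at FLG (954 bp) and RTL6 (788 bp). In the CDC42EP4 region the element lay 1 bp from the Nrf2 centre, and an ACGTG core followed 38 bp from it. Only this region and that of ESR1 held both TGACTCAGC and RCGTG in the window. Over the whole merged region others held both as well, among them CYP26B1, STX1A and SYNPO.

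At the edge of the rule, 38 exchanged regions had an excluded peak within 1 kb, 20 of them an Nrf2 control peak and 22 a HIF1α iAs peak. The nearest was a HIF1α iAs peak 3 bp from the SYNPO region, followed by CCDC47 (16 bp), SLC22A4 (21 bp), DNAJB12 and KRT80 (27 bp each), where a HIF1α iAs peak adjoined in every case. Just outside the rule were regions at XXYLT1, RGMB, SYT12, SMAD6 and AKR1B10, which shared only 76, 83, 90, 106 and 118 bp with an excluded peak. The excluded peak was of HIF1α with iAs at XXYLT1, SYT12 and SMAD6, and of Nrf2 in control cells at RGMB and AKR1B10, an aldo-keto reductase gene.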

How the data were processed

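The authors immunoprecipitated chromatin of BEAS-2B cells, sequenced 1 library per antibody and condition, mapped them, thinned the tags of each group of samples to the smallest one, and called peaks by MACS or SICER. The submitters' processing notes name BWA, MACS2 2.1.0 and hg19. Which caller made each list is not given in the sources used here. The deposited lists hold base positions per peak and per merged region, without height, score or read count, so depth per sample is unknown and limits every statement on a missing peak. An input library has no list.

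Samples were grouped by antibody and treatment as labelled. Merged regions were classed by overlap of at least 1 bp with the peaks of each library. A recount with bedtools 2.31.1 gave the same 604 regions. Genes came from GENCODE release 44 lifted to GRCh37 (20175 protein-coding genes, 64222 basic transcripts), and bases from GRCh37. Each centre took the first class that applied among promoter (up to 3 kb before a start), then 5'-UTR, then other exon, intron, 3'-UTR, and last distal intergenic. Sequences were searched on both strands within 100 bp of the centre. Shares carry Wilson 95% intervals and differences Newcombe 95% intervals, read as differing where 0 is left out. No p-value was computed, since regions of 1 library are not replicates. Python 3.11.15, NumPy 2.4.6 and SciPy 1.17.1 were used, and the steps were tested on simulated data.

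Regions were named by these rules: the 10 widest Nrf2 iAs and HIF1α control peaks, the 10 widest with TGACTCAGC, those within 10 kb of genes of 10 lists, the 5 with the fewest shared bases, the 5 closest to an excluded peak, and the 5 just outside. A name is that of the gene holding the region or of the nearest start, and distances are from the start of the canonical transcript. The regions and lists were chosen with earlier results of these data known. The alternatives were a 50% overlap, no excluded peak within 1 kb, the wider 50% of each list, a rebuilt union, autosomes and X only, other windows, a 1 kb promoter, and other gene distances. Some regions that these rules name are not reported here.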

Additional observations from a re-analysis of the deposited data

How the results depend on the processing

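Of 203 values recomputed under the alternatives, 178 kept their direction and their side of 0 or, for shares, counts and widths, stayed within the range allowed for the reported value. No difference whose interval left out 0 changed its sign. No paired analysis was possible because each antibody and condition has 1 library and no test across libraries was made. With only the wider 50% of each list, the excluded lists included, the rule gave 216 regions at 158 genes. Some of these were not among the 604, since a narrow excluded peak no longer counted. They had a median width of 508 bp, with TGACTCAGC in 3.70% and promoters at 7.41%. The distal intergenic and promoter differences from Nrf2-only regions were then 4.97 and -0.116 points and included 0, while the promoter and intron differences from Nrf2-constant regions, -8.38 and 10.9 points, left it out. Under the same setting 4 differences changed sign, with intervals that included 0 before and after. These were TGANTCA and RCGTG against Nrf2-constant regions, at 3.56 and 0.809 points, and HIF1α iAs peaks at the nearest start against HIF1α-only and Nrf2-constant regions, at -0.316 and -2.57 points. Without regions that had an excluded peak within 1 kb, the promoter difference from Nrf2-only regions was -0.482 points and included 0, and that of HIF1α iAs peaks at the nearest start was 4.62 points and left it out. Over the whole merged region, which is longer in some classes than in others, TGANTCA was found in 53.3% and RCGTG in 41.9%. The differences from Nrf2-constant regions, -18.5 and -13.3 points, then left out 0, and that of RCGTG from HIF1α-only regions, -4.07 points, included it. Around the HIF1α centre, the TGANTCA difference from Nrf2-constant regions was -13.9 points and left out 0. With a promoter of 1 kb, promoters held 2.98%, and the promoter and intron differences from Nrf2-only regions were -0.831 points, which included 0, and -4.62 points, which left it out. Within 50 kb, 776 genes had an exchanged region. Where no construction explains these moves, the cause was not tested. Peak height and depth could not be weighed, since the lists hold neither.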

Other observations

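Some exchanged regions lay in groups. With gaps of up to 50 kb, 109 of the 604 (18.0%) fell into 47 runs, the largest of 4 regions from RYK to AMOTL2 (chr3:134030457-134077249). No such share is given for the other classes, so grouping cannot be read as particular to the exchanged regions. At VMP1, a gene of autophagy, 4 regions lay within 10 kb of the gene, of which 1 was at the start of PTRH2, 2 were in introns 7 and 10 of VMP1 and 1 was beyond its end. MYOF, which encodes the membrane repair protein myoferlin, held 3, in introns 1 and 3. At PLAU, which encodes urokinase, 2 regions lay 16.4 and 1.91 kb upstream of the start and both held TGANTCA. BCL2L1, an inhibitor of apoptosis, held 2 in intron 2, both with TGANTCA. Upstream of THBS1, a matrix glycoprotein gene, there were 4 in 2 pairs, at 441 and 409 kb and at 190 and 176 kb, and the far pair held TGANTCA. Of 3 regions 179 to 211 kb upstream of FOXA2, 2 held it. These loci were chosen after their values were seen, and neighbouring regions are not independent.

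By chromosome, the share of exchanged regions among those with a HIF1α control or Nrf2 iAs peak ran from 1.96% on chromosome 19 (7 regions) to 8.65% on chromosome 22 (18 regions). Chromosomes 1 and 2, which held the most exchanged regions, had 5.70% (74 regions) and 4.84% (49 regions). Both extremes rest on few regions, and a difference between chromosomes was not tested. Among all words of 6 bases in the exchanged windows, counted on both strands, the part of the AP-1 element GAGTCA was found in 39.6% against 10.9% of the windows moved by 5 kb, and GGAATG in 33.3% against 10.8%. HIF1α-only and Nrf2-only windows held GAGTCA in 23.3% and 48.6%, and GGAATG in 24.7% and 20.3%.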
